A study of Mus musculus with 2 samples.

Results

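Classical monocytes with a low interferon response were cells chosen by their own RNA from CD45+ leukocytes of Lewis lung carcinoma (LLC) tumors, grown from a mouse lung cancer line. A cell was taken when it held at most 10% mitochondrial UMIs (unique molecular identifiers, each standing for 1 captured RNA molecule), at least 2 Ly6c2 UMIs and at least 5 Chil3 UMIs. It also held fewer than 10 UMIs of the complement C1q chains C1qa, C1qb and C1qc together, fewer than 4 of Ace, Treml4, Ear2 and Adgre4 together, S100a8 and S100a9 below 1% of its UMIs, and fewer than 8 UMIs of the interferon-induced genes Ifit2, Cxcl10, Cfb and Gbp2 together. This rule kept 514 of 5149 cells, 214 of 2445 in the library labelled wt and 300 of 2704 in the library labelled cko. These 15 genes set the membership, so their levels are a description of the choice.

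The study asked what loss of the microRNA miR-21 from macrophages does to the immune infiltrate of a tumor. Each library pooled the CD45+ cells of 3 tumor-bearing mice of strain C57/BL6, 10 weeks of age, 14 days after subcutaneous implantation of LLC cells. Both groups carried loxP-flanked miR-21 alleles (miR-21 fl/fl), and the knockout group also carried LysMCre, a Cre recombinase placed in the lysozyme gene Lyz2 and active in myeloid cells (LysMCre;miR-21 fl/fl). With 1 library for each genotype there was no replicate and no test. All intervals are 95% intervals that cover counting error only, and a genotype difference cannot be told apart from a difference between 2 libraries or 2 pools of mice.

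The labels disagree with each other on 2 points. The library titled wt has a source description that mentions a conditional knockout, whereas the library titled cko is described with floxed alleles alone, and a sort for CD11b, MHC class II and F4/80 is given beside the CD45 sort. The names wt and cko here follow the titles. The check at hand is Lyz2, since an allele that holds Cre yields less normal Lyz2 RNA: in the chosen monocytes Lyz2 stood at 29344 counts per 1000000 UMIs (CPM) in the library labelled wt and 14028 CPM in the library labelled cko, a log2 ratio of -1.06 (-1.08 to -1.05). miR-21 itself was not analysed here. The libraries held 24492486 and 27163485 UMIs, shared 5 cell barcodes, and 2 of the chosen cells carried a shared barcode.

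Classical monocytes leave the bone marrow through the chemokine receptor CCR2, carry the surface protein Ly6C, and enter inflamed tissue and tumors, where they can lose Ly6C and become macrophages or take up antigen-presenting functions. Interferons act on them through STAT transcription factors, which bind an element called ISRE or a shorter one called GAS before antiviral and antigen-presentation genes. A tumor thus holds monocytes at several points of these routes, and the cells described here are those with high Ly6c2 and Chil3, little C1q and little interferon-induced RNA.

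The markers given for these cells were present. Vcan, which encodes the matrix proteoglycan versican, stood at 273 CPM in wt and 258 CPM in cko, and F13a1, the A chain of coagulation factor XIII, at 357 and 461 CPM. In T and NK cells, which should lack both genes, Vcan stood at 3.93 and 3.79 CPM and F13a1 at 0.982 and 2.28 CPM. After thinning every cell to 3000 UMIs, 50.5% (43.6% to 57.4%) of the chosen cells of wt and 48.7% (42.9% to 54.5%) of those of cko had a Vcan UMI, against 0.794% and 0.614% of T and NK cells, so the signal was well above that background of free RNA. Median depth before thinning was 8070 and 8124 UMIs in the chosen cells and 6307 and 6527 UMIs in the T and NK cells. Ccr2, the receptor for egress and recruitment, was at 999 and 1082 CPM. Ly6c1, the near-identical neighbour of Ly6c2 on chromosome 15, gave 12 and 17 UMIs in all, against 2613 and 3748 for Ly6c2, and reads that fit both genes could have been assigned to neither.

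Genes of other cells were scarce but not absent. The 9 T and NK cell markers summed to 119 CPM in wt and 91.2 CPM in cko, against 10152 and 8911 CPM in the T and NK cells, and 2 and 4 of the chosen cells held at least 3 UMIs of lymphoid genes. The 4 B cell markers summed to 7.29 and 5.77 CPM, with Cd79a and Ms4a1 at 0 in both libraries and 1 cell of wt at 3 UMIs. The 10 dendritic cell markers summed to 5.05 and 13.8 CPM, and Ly6g, the granulocyte marker, had 2 and 0 UMIs although the neutrophil list as a whole, which shares genes with monocytes, reached 771 and 905 CPM. The tumor and stromal list summed to 1.68 and 2.31 CPM and the red cell and platelet list to 24.7 and 16.5 CPM. The rule did not remove doublets.

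**Figure D1:**
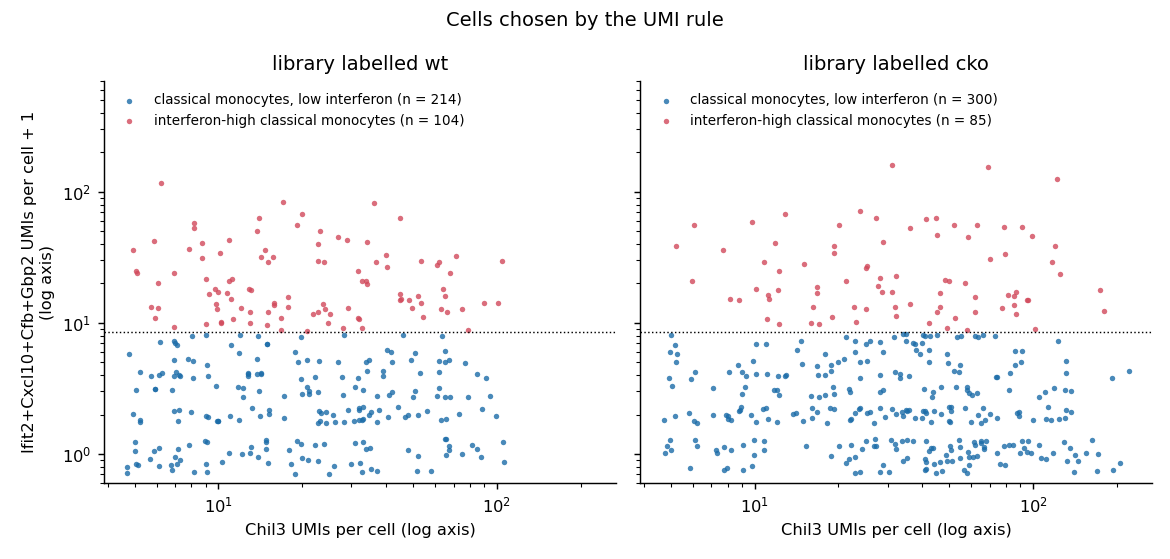
Chil3 UMIs (x, log axis) against the summed UMIs of Ifit2, Cxcl10, Cfb and Gbp2 plus 1 (y, log axis) in single cells that met every other part of the rule, in the libraries labelled wt and cko; points are jittered by up to 0.3 UMIs. Blue cells (214 and 300) lie under the dotted line of 8 UMIs and red interferon-high cells (104 and 85) above it, with no gap between them.

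The class is a range cut from a continuum. Just inside the interferon limit, at 4 to 7 UMIs, lay 39 cells of wt and 56 of cko, and just outside it, at 8 to 11 UMIs, lay 24 and 16. Just inside the Ly6c2 limit, at 2 to 3 UMIs, lay 56 and 74 cells, whereas 97 and 137 cells at 0 to 1 UMIs met all other parts of the rule. For Chil3 40 and 25 cells held 5 to 7 UMIs, with 32 and 28 cells outside at 2 to 4 UMIs. For the C1q sum 7 and 20 cells held 5 to 9 UMIs, with 12 and 9 cells at 10 to 14 UMIs. For Ace, Treml4, Ear2 and Adgre4, which mark nonclassical monocytes, 47 and 80 cells held 2 to 3 UMIs, with 18 and 25 cells at 4 to 5 UMIs.

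The chosen cells made up 8.75% (7.66% to 9.94%, exact Clopper-Pearson) of the library labelled wt and 11.1% (9.94% to 12.3%) of the library labelled cko. Both shares carry no replicate, and the ratio was 1.27 (1.06 to 1.52). Among classical monocytes of either interferon level, 67.3% (61.8% to 72.4%) were in the low class in wt and 77.9% (73.4% to 82.0%) in cko. The ratio of the shares differed with and without a Chil3 limit. With no threshold on Chil3, an alternative chosen after seeing the data, 468 cells of wt and 494 of cko were taken. The shares were then 19.1% and 18.3% and the ratio was 0.954 (0.839 to 1.09). Under 5 other settings, 1 of them a looser gate with at least 3 Chil3 UMIs, the ratio was 1.21 to 1.43. Chil3, which encodes a chitinase-like protein of myeloid cells, was itself higher in the library labelled cko, at 3409.5 CPM in wt and 5363 CPM in cko within the chosen cells. It was also higher there in every set compared, with log2 ratios of 0.78 in interferon-high classical monocytes, 1.32 in Ly6c2-positive C1q cells and 0.91 in Ly6c2-low C1q cells. The part of this difference in the shares was not tested beyond the alternatives above.

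The cells most like those chosen were the interferon-high classical monocytes, 104 cells of wt and 85 of cko that met every part of the rule but held 8 or more interferon UMIs. Levels were compared within each library, and a gene was counted when its CPM differed at least 2-fold in the same direction in both. Since the cells were split by interferon-induced RNA, the list that follows is a description of the split. Of 4859 genes with at least 50 UMIs in each library, rule genes left out, 121 (2.49%) were lower and 17 (0.35%) were higher in the low-interferon cells.

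Interferon targets led the lower genes. Of 29 measured interferon-stimulated genes outside the rule 19 were at least 2-fold lower, with a median log2 ratio of -1.34 by the smaller of both libraries' ratios, and of 16 interferon gamma-induced GTPases and chemokines 13 were, with a median of -1.68. The median of all genes by the same measure was 0. These 2 lists gave 32 of the 121 genes. Isg15, a ubiquitin-like modifier, was at 258 CPM against 1357 CPM in wt and at 218 against 1442 CPM in cko. Ifit3, an antiviral RNA-binding partner protein, was at 39.8 against 358 CPM in wt and 33.5 against 393 CPM in cko. Both libraries therefore lay close together on either side of the split.

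Cxcl9, a chemokine that draws CXCR3-bearing T cells, had the largest difference by the smaller of both libraries' ratios, at 7.85 against 457 CPM in wt and 20.001 against 451 CPM in cko, with log2 ratios of -5.86 and -4.49. In cko 24 of the 52 Cxcl9 UMIs of the low-interferon cells came from 1 cell. Iigp1, an immunity-related GTPase, followed with log2 ratios of -4.12 and -4.61, Irg1, the enzyme that makes itaconate, with -3.91 and -4.41, and Ifit1bl1 with -4.13 and -3.87. Cnn3, an actin-binding calponin (-4.09 and -3.28), and Serpina3g, a protease inhibitor (-3.32 and -3.23), belong to no interferon list used here. Cd274, which encodes the checkpoint ligand PD-L1, was at 16.3 against 53.7 CPM in wt and 13.8 against 72.1 CPM in cko, and Il1rn, the interleukin 1 receptor antagonist, was at 61.2 against 154 and 49.6 against 147 CPM.

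**Figure D2:**
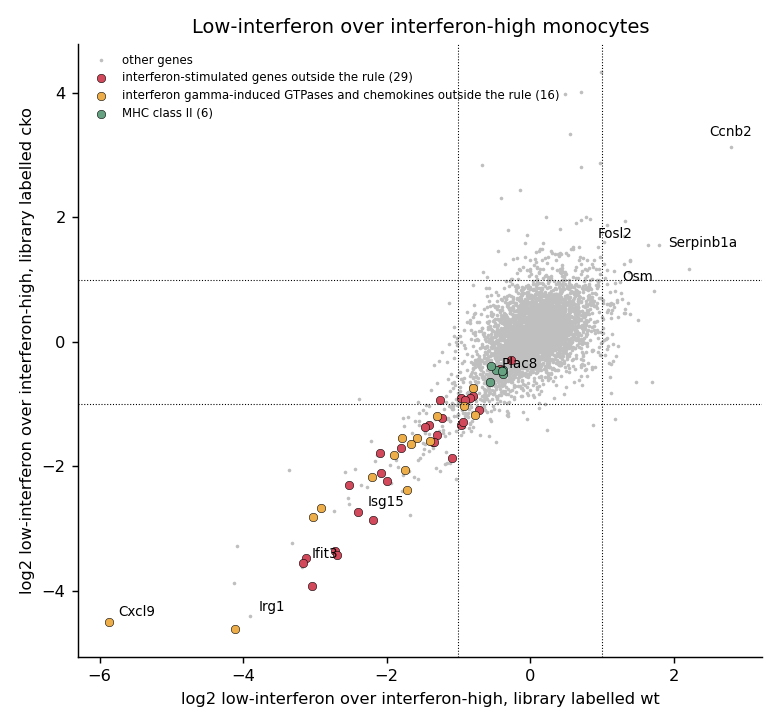
Log2 ratio of CPM in low-interferon over interferon-high classical monocytes, library labelled wt on x and library labelled cko on y, 1 point a gene with at least 50 UMIs in each library; dotted lines mark 2-fold. Interferon lists (red, orange) run to the lower left, to -5.86 and -4.49 for Cxcl9, the 6 measured MHC class II genes (green) stay within 2-fold, and Ccnb2 lies at the upper right at 2.80 and 3.12.

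Promoters are shown because most of the named lower genes are classical interferon targets and the data bear on the group as a whole. In the 300 bases from 250 before to 50 after the annotated start, the letters GAAANNGAAA on either strand, the core of an ISRE, were found in 29 of 87 promoters (33.3%) of genes lower in the low-interferon cells, in 185 of 3776 (4.90%) of genes with enough UMIs and in 1079 of 27025 (3.99%) of all genes. The letters TTCNNNGAA, a GAS core that reads the same on both strands and can share bases with the ISRE letters, were found in 14 of the 87 (16.1%), in 8.10% of genes with enough UMIs and in 9.55% of all. Of the 17 genes higher in the low-interferon cells 10 had a promoter in the table, and 1 of them, Fosl2, held the ISRE letters. A match is a description of letters and not a bound site. The 4 promoters below, in GRCm38.p6 and read from RefSeq 5′ to 3′ on the strand of the gene, carry the match in capitals, 2 times in Ifit3 and once in each of the others; Gbp2 and Cxcl10 are genes of the rule, and Gbp2b returns in the comparison of the libraries.
Ifit3, chr19:34583279-34583578, plus strand: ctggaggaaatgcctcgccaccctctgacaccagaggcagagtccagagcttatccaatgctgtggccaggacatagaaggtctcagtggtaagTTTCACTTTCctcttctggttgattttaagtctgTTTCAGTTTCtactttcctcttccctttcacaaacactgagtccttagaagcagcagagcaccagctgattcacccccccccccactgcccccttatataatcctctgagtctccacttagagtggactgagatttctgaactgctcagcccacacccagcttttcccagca
Cxcl10, chr5:92348840-92349139, minus strand: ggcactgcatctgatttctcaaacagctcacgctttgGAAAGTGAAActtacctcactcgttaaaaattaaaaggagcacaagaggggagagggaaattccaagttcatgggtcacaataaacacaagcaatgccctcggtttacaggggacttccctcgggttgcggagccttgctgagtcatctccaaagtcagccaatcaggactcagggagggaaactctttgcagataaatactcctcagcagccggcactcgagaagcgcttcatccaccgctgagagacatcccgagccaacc
Gbp2, chr3:142620413-142620712, plus strand: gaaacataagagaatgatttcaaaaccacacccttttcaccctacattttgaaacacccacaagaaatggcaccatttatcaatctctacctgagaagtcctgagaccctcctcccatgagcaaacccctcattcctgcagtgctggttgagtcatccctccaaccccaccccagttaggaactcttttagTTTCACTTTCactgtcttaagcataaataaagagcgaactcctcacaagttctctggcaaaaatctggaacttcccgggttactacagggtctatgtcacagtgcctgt
Gbp2b, chr3:142594597-142594896, plus strand: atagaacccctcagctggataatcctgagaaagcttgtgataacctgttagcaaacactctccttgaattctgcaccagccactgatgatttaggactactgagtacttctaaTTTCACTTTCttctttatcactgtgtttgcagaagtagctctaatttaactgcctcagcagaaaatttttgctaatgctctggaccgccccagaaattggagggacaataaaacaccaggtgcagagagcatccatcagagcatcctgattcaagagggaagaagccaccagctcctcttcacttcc
In Ifit3 the matches began 156 and 122 bases before the start, in Cxcl10 213 bases, in Gbp2 59 bases and in Gbp2b 137 bases before it. The Cxcl9, Ifi44 and Ifi44l windows held neither motif.

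With this filter 17 genes were higher in the low-interferon cells, and those named were of other kinds. The number was 69 at 20 UMIs and 207 with no threshold on Chil3. Ccnb2, cyclin B2 of dividing cells, was at 50.5 against 7.23 CPM in wt and 56.2 against 6.44 CPM in cko. It was the only 1 of 11 measured cell cycle genes past 2-fold, with a list median of 0. Fosl2, an AP-1 transcription factor, was at 54.98 against 17.5 and 49.2 against 16.7 CPM, and Serpinb1a, an inhibitor of neutrophil serine proteases, was at 46.6 against 13.4 and 49.2 against 16.7 CPM. Cd24a, a surface sialoglycoprotein (1.32 and 1.94 on the log2 scale), Ceacam1, an adhesion molecule (1.39 and 1.31), Nt5dc2 (1.31 and 1.69), Osm, the cytokine oncostatin M (1.39 and 1.30), and the noncoding RNA AI839979 (1.31 and 1.26) completed the named genes. Prtn3, the granule protease proteinase 3, was the only 1 of 14 measured granule genes past 2-fold, at 1.38 and 1.12.

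Not all markers of the classical monocyte were highest in the low-interferon cells. None of 12 measured markers outside the rule differed 2-fold in both libraries (median 0.29). Plac8, a cysteine-rich monocyte protein, was at 7394 and 10583 CPM in wt and 7009 and 9978 CPM in cko. F13a1 and Hp, which encodes the hemoglobin-binding protein haptoglobin, went the other way, with log2 ratios of 0.97 and 1.17 for F13a1 and 1.11 and 0.80 for Hp. No gene among 6 MHC class II genes and none among 22 macrophage maturation genes reached 2-fold in both libraries.

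The chosen cells were described by steps of the interferon sum, a value of the rule, so the steps support nothing about the interferon split. Isg15, which the rule did not use but which was counted in the same cells, was higher step by step. Isg15 stood at 170.0, 262 and 388 CPM in the cells of wt with 0, 1 to 3 and 4 to 7 interferon UMIs, and at 1067 CPM in those with 8 to 15, which lie outside. In cko the same steps were 91.4, 188 and 546 CPM, then 1111 CPM outside. The 7 MHC class II genes together stayed level in wt, at 13371, 13511 and 14529 CPM, and climbed in cko from 6369 to 13998 and 17791 CPM. These steps held 68, 107 and 39 cells of wt and 107, 137 and 56 cells of cko.

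Ly6c2-positive C1q cells, 271 in wt and 208 in cko, had at least 2 Ly6c2 UMIs and at least 10 of the C1q chains, so they carry a monocyte and a macrophage mark at once. Of 6376 genes with enough UMIs 92 (1.44%) were at least 2-fold higher and 180 (2.82%) at least 2-fold lower in the chosen monocytes, in both libraries. The sets were split by C1q, and only the chosen cells needed 5 Chil3 UMIs. The contrast in monocyte and macrophage genes is thus in part fixed by the choice. With no threshold on Chil3, 196 genes were higher. Of 13 matrix and coagulation genes 5 were higher (F13a1, Vcan, Fn1, Thbs1 and Mmp8) and the metalloproteinases Mmp12 and Mmp14 were lower, with a list median of 0.91.

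Of 12 classical monocyte markers outside the rule 8 were at least 2-fold higher, among them Vcan, F13a1, Hp, Msrb1, Mgst1, Thbs1 and Fn1, with a list median of 1.29 against 0 for all genes. Hp was at 979 against 109.9 CPM in wt and 1167 against 219 CPM in cko. Fn1, fibronectin, was at 150.4 against 16.2 and 166 against 36.7 CPM. Mgst1, a microsomal glutathione transferase, was at 401 against 50.8 and 434 against 81.1 CPM. A gene was counted only when both libraries lay on the same side, so that agreement is no result. The cko ratios of these 3 genes were the smaller ones.

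Of 14 granule and antimicrobial genes 5 were higher (Hp, Wfdc21, Lcn2, Prtn3 and Anxa1) and none was lower, with a list median of 0.71. Wfdc21, a whey acidic protein-domain peptide, was at 174 against 7.65 CPM in wt and 172 against 7.69 CPM in cko, log2 ratios of 4.51 and 4.48. Lcn2, the siderophore-binding lipocalin 2, was at 88.6 against 4.29 and 135 against 13.2 CPM. Prtn3 was at 143 against 21.4 and 188 against 33.3 CPM. Serpinb1a (3.93 and 3.53), Hsd11b1, an enzyme that activates glucocorticoids (3.05 and 3.20), Pglyrp1, a peptidoglycan-binding protein (2.68 and 3.28), Pi16 (2.54 and 2.69) and Ccnb2 (2.51 and 2.52) made up the other 5 of the named genes.

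Of 7 MHC class II genes 6 were at least 2-fold lower, with a median of -1.70; H2-Ab1, a class II beta chain, was at 2568 against 10777 CPM in wt and 2342 against 8951 CPM in cko. Of 29 macrophage maturation genes outside the rule 16 were lower (median -1.32), among them Mrc1, the mannose receptor, Ms4a7, Axl and Lgmn. Of 29 interferon-stimulated genes outside the rule 7 were lower (median -0.49), and of 18 interferon gamma-induced genes 6 were (median -0.64), with none higher on either list. The rule capped the interferon UMIs of the chosen cells and not those of the C1q cells, so lower interferon RNA is in part fixed by the choice. Of 20 lineage transcription factors Maf, Nr1h3 and Pparg were lower and Fosl2 was higher, whereas Spi1, which encodes PU.1, was at 672 against 685 and 703 against 738 CPM. Of 20 chemokine and cytokine ligands Ccl2, Ccl7, Ccl8, Ccl12, Cxcl16 and Il1rn were lower and Osm was higher. Ccl8 was the lowest named gene by the smaller of both libraries' ratios, at 15.7 against 245 CPM in wt and 13.1 against 319 CPM in cko, and Slamf9 (-3.81 and -3.55 on the log2 scale), Iigp1 (-4.23 and -3.41) and Vcam1, an adhesion molecule (-4.69 and -3.40), were likewise lower. Of the other named genes few UMIs were left in the chosen cells. Mgl2, a galactose-binding lectin, had 3 and 4 UMIs against 24.8 and 22.6 CPM in the C1q cells, Cadm1, an adhesion molecule, 1 and 6 UMIs against 21.7 and 29.04 CPM, and Folr2, a folate receptor, 3 and 9 UMIs against 36.4 and 39.3 CPM. Apol7c had 0 UMIs in wt and 3 in cko, against 25.4 and 30.7 CPM in the C1q cells.

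**Figure D3:**
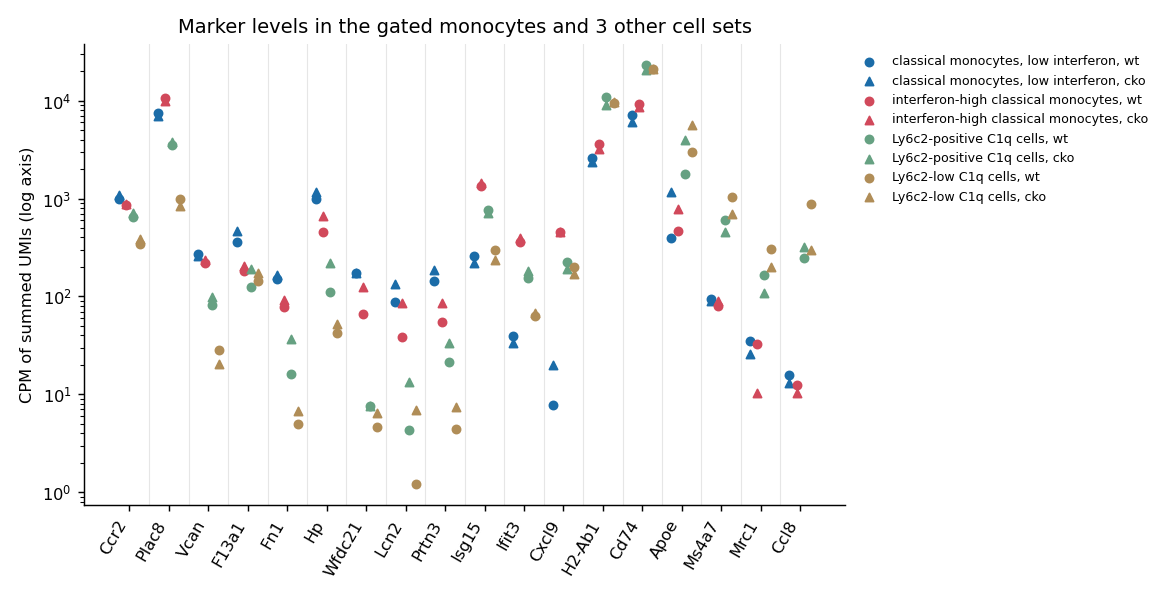
CPM of summed UMIs (log axis) for 18 genes in the chosen monocytes (blue), interferon-high classical monocytes (red), Ly6c2-positive C1q cells (green) and Ly6c2-low C1q cells (brown); circles are the library labelled wt and triangles the library labelled cko. Fn1, Hp, Wfdc21, Lcn2 and Prtn3 fall from left to right within each gene, H2-Ab1, Cd74, Ms4a7, Mrc1 and Ccl8 are highest in C1q cells, and Isg15, Ifit3 and Cxcl9 are highest in the interferon-high cells.

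Ly6c2-low C1q cells, 404 in wt and 514 in cko, stood further away. Of 7439 genes 218 (2.93%) were at least 2-fold higher and 469 (6.3%) at least 2-fold lower in the chosen monocytes in both libraries. All but Gsr of the 12 classical monocyte markers outside the rule were among the higher genes (median 2.69). Cd177, a granulocyte adhesion protein, was at 30.3 CPM in wt and 27.3 CPM in cko, with 2 and 1 UMIs in all Ly6c2-low C1q cells. Wfdc21, Prtn3, Fn1, Hp, Hsd11b1 and Lcn2, named above, had log2 ratios of 4.29 to 6.21. Vcam1 was the lowest named gene with at least 5 UMIs in the chosen cells of each library, at 2.81 against 253 CPM in wt and 7.31 against 218 CPM in cko. The other 7 named genes on that side, Cadm1, Mgl2, Slc40a1, the iron exporter ferroportin, Gas6, a ligand of the TAM receptors, Fcna, Cbr2 and Nme4, left 0 to 7 UMIs each in the chosen cells of a library. Slc40a1 had 6 and 3 UMIs there, against 94.8 and 43.6 CPM in the Ly6c2-low C1q cells, and Gas6 2 and 7 UMIs against 118 and 73.1 CPM. Of 29 interferon-stimulated genes outside the rule 4 were higher (Slfn1, Slfn4, Slfn5 and Ms4a4c) and 1, Oasl1, was lower, with a list median of 0.13. Of 18 interferon gamma-induced GTPases and chemokines Gbp8, Iigp1, Cxcl9 and Cd274 were lower and none was higher, with a list median of -0.05. Here too only the chosen cells were capped in interferon UMIs and needed Chil3, and the sets were split by C1q and Ly6c2.

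The chosen cells were also described by steps of the C1q sum, a value of the rule, so the steps support nothing about the contrast with C1q cells. The 7 MHC class II genes together were at 12528, 13623 and 19509 CPM in cells of wt with 0, 1 to 3 and 4 to 9 C1q UMIs, and at 10303, 11119 and 17959 CPM in cko. The highest step held 13 cells of wt and 41 of cko. Granule and antimicrobial genes stood at 37260 and 34258 CPM in the lowest and highest steps of wt and at 22943 and 20111 CPM in cko. Macrophage maturation genes outside the rule stood at 16398, 16392 and 17875 CPM in wt and at 17975, 17757 and 18855 CPM in cko. Lyz2, lower in cko, is part of the granule sum.

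By variance over mean, 4 MHC class II genes were among the 10 most variable genes of the chosen cells. At a like relative spread between cells this measure is larger for genes with more UMIs. Cd74 had a mean of 22.2 UMIs of 3000 in wt and 17.9 in cko. After thinning to 3000 UMIs, which left out no cell, the median variance over mean of 1911 genes was 1.08 in wt and 1.07 in cko, near the value of 1 that counting alone gives. Cd74, the class II invariant chain, stood at 31.5 and 45.6, H2-Ab1 at 16.9 and 21.8, H2-Aa at 14.9 and 18.8 and H2-Eb1 at 10.1 and 14.1. The other 6 of the 10 most variable genes were Actb, Ccl5, Ifitm1, Malat1, Lyz2 and Cxcl2. Ccl5, a chemokine of lymphocytes, owed its rank to few cells, with a UMI in 6.07% and 3.33% of cells and up to 31 and 42 UMIs in 1 cell.

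Cd74 with at least 5 of 3000 UMIs was found in 60.3% of cells of wt and 43.3% of cells of cko. Across cells, Cd74 correlated with H2-Ab1 (Spearman rho 0.83 in 214 cells of wt and 0.77 in 300 of cko), with Malat1, a nuclear noncoding RNA (0.48 and 0.42), and with Ifitm1 (0.39 and 0.32). These values share library and thinning depth within each column and are given as descriptions.

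The summed UMIs of H2-Aa, H2-Ab1, H2-Eb1 and Cd74 ran from 0 to 200 of 3000 in wt, with a median of 12, and from 0 to 253 in cko, with a median of 5. Cells under 5 made up 31.8% of wt and 46.3% of cko. Each library was then split into the cells of its lowest and highest tertile, 76 and 71 cells of wt and 119 and 99 of cko, a split and a list of genes chosen after the values were seen. The highest tertile began at 42 UMIs in wt and at 16 in cko, and the lowest reached 5 and 3 UMIs. A tertile therefore does not hold like cells in both libraries. Of 3056 genes with enough UMIs 56 were at least 2-fold higher and 55 at least 2-fold lower in the highest tertile of both libraries.

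Of 14 measured granule genes 6 and of 8 measured cell cycle genes 4 were at least 2-fold lower in the highest tertile, beside 55 of 3056 genes in all, and none was higher. Classical monocyte markers were lower in 4 of 14 and higher in none, with median log2 ratios of -0.83 in wt and -0.76 in cko. Ccnb2 was at 97.4 CPM in the lowest and 1.77 CPM in the highest tertile of wt, and at 119.6 and 4.65 CPM in cko. Lcn2 was at 184 and 16.0 CPM in wt and 264 and 20.9 CPM in cko, and Wfdc21 at 348 and 19.5 CPM in wt and 301 and 43.0 CPM in cko. Serpinb1a was at 106 and 3.54 CPM and at 93.8 and 11.6 CPM, and Fn1 at 288 and 44.3 CPM and at 288 and 59.3 CPM. Hsd11b1, Tppp3, Dmkn, Nkg7 and the dividing-cell genes Birc5, Stmn1, Cenpa and Cks1b were lower as well. The same side in both libraries was a condition of the ranking. Nkg7 is on the T and NK cell list, and the chosen cells with at least 3 lymphoid UMIs, 2 of wt and 4 of cko, were kept here. Ccnb2, Lcn2, Wfdc21, Serpinb1a, Fn1 and Hsd11b1 were also among the genes at least 2-fold higher in the chosen monocytes than in Ly6c2-positive C1q cells, and their RNA was unevenly spread over the chosen cells.

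Of 16 measured chemokine and cytokine ligands 6 and of 18 macrophage maturation genes 4 were at least 2-fold higher in the highest tertile, beside 56 of 3056 genes in all, and none was lower. C1q macrophage markers were higher in 2 of 5 measured and lower in none, with median log2 ratios of 0.75 in wt and 0.69 in cko. H2-DMb1, which helps load peptides, was at 913 CPM in the highest and 78.0 CPM in the lowest tertile of wt and at 737 and 85.5 CPM in cko. Ccl12, a CCR2 ligand, was at 214 and 2.78 CPM in wt and at 113 and 11.96 CPM in cko, with 79 of its 143 UMIs in wt in 1 cell. Ms4a7 was at 144 and 20.9 CPM and at 181 and 17.5 CPM, and Dab2, an endocytic adaptor, at 237 and 47.3 CPM and at 253 and 22.1 CPM. Aif1, an actin-bundling protein of macrophages, was at 984 and 206 CPM and at 1041 and 199.6 CPM, and Ly6a at 378 and 84.9 CPM and at 517 and 60.7 CPM. Depth was not higher in this tertile, with medians of 7808 against 9232 UMIs in wt and 7861 against 8357 in cko, and ribosomal protein RNA was lower, at 14.9% against 17.7% and 14.6% against 16.9%.

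**Figure D4:**
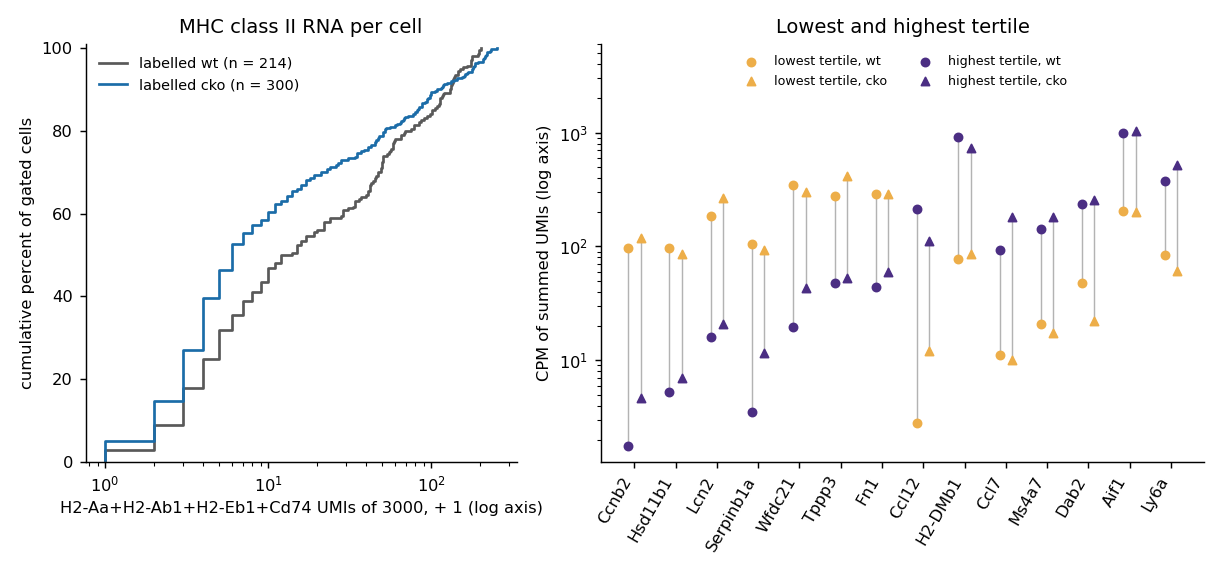
Left, cumulative percent of chosen cells (y) by summed H2-Aa, H2-Ab1, H2-Eb1 and Cd74 UMIs of 3000 plus 1 (x, log axis), grey for the library labelled wt (214 cells) and blue for cko (300 cells). Right, CPM (log axis) of 14 genes in the lowest (yellow) and highest (purple) tertile of that sum, circles for wt and triangles for cko: Ccnb2 to Fn1 are higher in the lowest tertile and Ccl12 to Ly6a in the highest, in both libraries.

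Cells with at least 3 of 3000 UMIs from 10 mitotic genes were few, 9 of 214 (4.21%, 1.94% to 7.83%) in wt and 15 of 300 (5%, 2.83% to 8.11%) in cko. Among interferon-high monocytes they were 4 of 104 and 0 of 85, with an exact upper bound of 4.25%, and among Ly6c2-positive C1q cells 7 of 271 and 2 of 208. T and NK cells had 11.9% and 19.6%. The intervals of the monocyte sets overlapped within each library.

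Between the libraries the chosen monocytes were much alike. Of 4381 genes with at least 100 UMIs 81 (1.85%) were at least 1.5-fold higher and 34 (0.776%) at least 1.5-fold lower in the library labelled cko, the median log2 ratio was 0.04 and the median size of a log2 ratio 0.13. With TMM scaling, which is set by the bulk of genes, the counts were 64 higher and 51 lower. The 20 genes named by the bounds of their counting intervals included myeloid proteins such as Lyz2 and Apoe, 3 interferon-related genes, and 4 genes whose UMIs lay mostly in 1 cell.

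Lyz2, given above as the check of labels, was 1 of the lower genes, and its neighbour on chromosome 10, Lyz1, was higher, at 60.03 CPM in wt and 125 CPM in cko, with 96 of 326 UMIs of cko in 1 cell. The 2 genes are near-identical, and their reads cannot be fully told apart. Tgfb1, the cytokine TGF-beta 1, was at 458 CPM in wt and 155 CPM in cko, a log2 ratio of -1.56 (-1.74 to -1.39). It stood alike in the other sets of the same libraries, at -1.48 in interferon-high monocytes, -1.44 in Ly6c2-positive C1q cells and -1.58 in Ly6c2-low C1q cells, and T and NK cells had 169.9 and 59.9 CPM.

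Gbp2b, a guanylate-binding protein, was the highest named gene, at 14.03 CPM in wt and 100.4 CPM in cko (2.84, 2.25 to 3.49). Ifi44 was at 15.7 and 78.1 CPM (2.31, 1.74 to 2.94) and Ifi44l at 11.2 and 55.4 CPM (2.30, 1.62 to 3.06). All 3 lie on chromosome 3 (GRCm38), Gbp2b at 142594847 to 142619179 and the adjacent Ifi44 and Ifi44l at 151730922 to 151749960 and 151758737 to 151762892. They were also higher in cko in the other sets, at 1.20 for Gbp2b, 0.94 for Ifi44 and 1.85 for Ifi44l in Ly6c2-low C1q cells. Gbp2b and Ifi44l are on neither interferon list used here. Of 25 measured interferon-stimulated genes on the list Ifi44 was higher and Slfn4 lower, and the median was 0.01. Of the 9 measured interferon gamma-induced GTPases and chemokines on the other list none was past 1.5-fold (median 0.11), and Isg15 was at 258 and 218 CPM.

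Apoe, a lipid carrier of macrophages, was at 398 CPM in wt and 1168 CPM in cko (1.55, 1.43 to 1.67). It had a UMI in 36.4% (30.0% to 43.3%) of the thinned cells of wt and 65.0% (59.3% to 70.4%) of those of cko. T and NK cells, which should lack it, had a UMI in 11.9% and 21.5% of thinned cells and 44.2 and 94.04 CPM, so this background differed in the same direction, at a lower level. In the C1q cells Apoe was at 2956 and 5691 CPM in Ly6c2-low and 1771 and 3959 CPM in Ly6c2-positive cells. The 8 C1q macrophage markers, Apoe among them, summed to 784 and 1604 CPM in the chosen cells, against 17189 and 18864 CPM in Ly6c2-low C1q cells, and the part of C1q cell RNA in the ratio was not tested. Saa3, an acute-phase protein, was at 136 and 425 CPM (1.65, 1.44 to 1.85), with 115 of 1104 UMIs of cko in 1 cell, and its log2 ratio was 2.91 in interferon-high monocytes and 0.31 in Ly6c2-positive C1q cells. Cd81, a tetraspanin (1.31), Ddit4, a stress-induced inhibitor of mTORC1 (1.27), and the processed pseudogene Gm5900 (2.10) closed the higher genes.

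On the lower side, Il1b, the inflammatory cytokine interleukin 1 beta, was at 1221 CPM in wt and 771 CPM in cko (-0.66, -0.75 to -0.58). In the other sets its ratio was 0.05 in interferon-high monocytes, -0.07 in Ly6c2-positive C1q cells and -0.35 in Ly6c2-low C1q cells. Bcl2a1b and Bcl2a1d, near-identical survival genes whose reads cannot be fully told apart, were at -1.13 and -0.87, Pglyrp1 at -0.88 and Sdc4, a heparan sulfate proteoglycan, at -0.88. Sdc4 was also among the genes higher in the MHC class II-rich tertile, at 115 CPM in the highest and 13.9 CPM in the lowest tertile of wt and at 87.1 and 16.6 CPM in cko, and the MHC class II-rich cells were a smaller share in cko. The part of that share in the ratio of Sdc4 was not tested.

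Pf4, Xcl1, Gzmb and Ccl4 turned on single cells. Of 405 Pf4 UMIs in cko 284 lay in 1 cell, all 349 Xcl1 UMIs of wt lay in 1 cell, and so did 72 of 102 Gzmb UMIs and 312 of 363 Ccl4 UMIs. Without the top cell of each gene in each library, the log2 ratio of Ccl4 was 0.50 (0.01 to 1.01), opposite in sign, that of Pf4 fell to 0.57 (0.10 to 1.05) and that of Gzmb was -1.54 (-2.54 to -0.60). Xcl1 had no UMI left in wt, so no ratio is given for it. The cell of wt with the 72 Gzmb UMIs held 133 UMIs of the T and NK cell markers. Without the chosen cells that held at least 3 lymphoid UMIs, Xcl1 also had no UMI left in wt. Ccl4 was then at 0.66 (0.18 to 1.17).

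**Figure D5:**
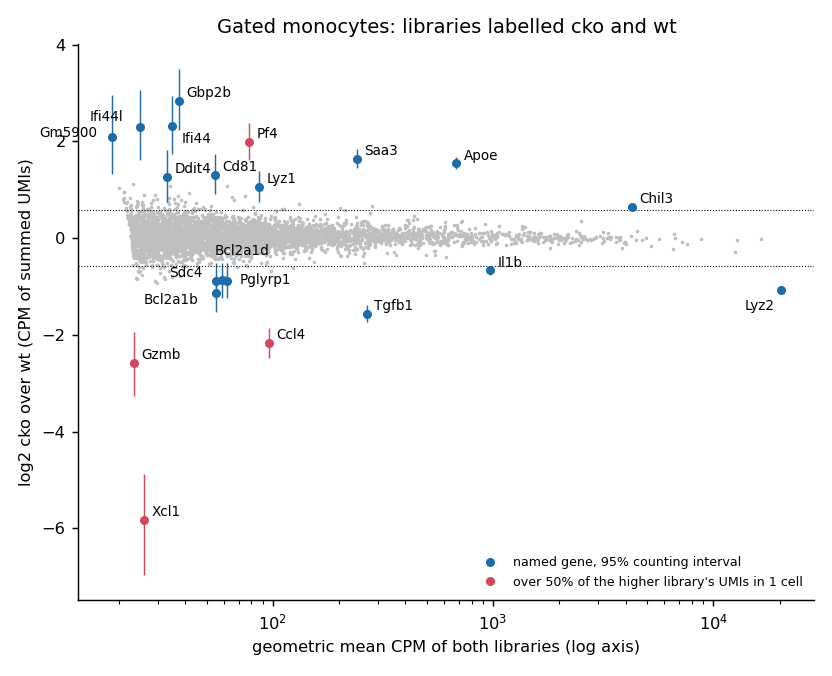
Log2 ratio of CPM in the library labelled cko over that labelled wt (y) against the geometric mean CPM (x, log axis) in the chosen monocytes, 1 grey point a gene with at least 100 UMIs; bars are 95% counting intervals and dotted lines mark 1.5-fold. Named genes are blue, or red where over 50% of the UMIs of the higher library lay in 1 cell (Pf4, Xcl1, Gzmb, Ccl4); Tgfb1 at -1.56 and Lyz2 at -1.06 lie far below genes of like level, Apoe at 1.55 and Saa3 at 1.65 far above, and the rule gene Chil3 is at 0.65.

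Counts of the other gene lists past 1.5-fold are to be read beside 1.85% higher and 0.776% lower among all genes. Of 7 measured miR-21 targets Rhob, a small GTPase, was past 1.5-fold, at 31.4 and 49.6 CPM, and the list median was 0.03; Pdcd4 stood at 23.003 and 21.5 CPM. Rhob was likewise above 0 in the other sets, at 0.51, 0.45 and 0.67. None of 6 MHC class II genes was past 1.5-fold in summed UMIs (median -0.17), where the 7 genes of the list together stood at 13665 CPM in wt and 12064 CPM in cko, whereas the median over cells of that sum was 4562 CPM in wt and 2070 CPM in cko. There was none past 1.5-fold among 13 trafficking genes (median 0.08), none of 12 matrix and coagulation genes (0.04), none of 22 hypoxia and glycolysis genes (0.09), none of 16 pattern recognition genes (0.08), none of 11 growth factor receptors (0.06) and none of 17 handling stress genes (0.24). Of 18 lineage transcription factors Klf2, which restrains activation of myeloid cells, was higher, at 224 and 354 CPM, and it was so by 0.78, 0.64 and 0.57 in the other sets. Of 17 chemokine and cytokine ligands Cxcl2 was higher and Ccl3, Ccl4, Ccl12, Il1b and Tgfb1 lower, with a list median of 0.06 and Ccl3 with 159 of 221 UMIs of wt in 1 cell. Ccl12 and Cxcl2 were uneven as well, with 79 of 143 Ccl12 UMIs of wt and 45 of 119 of cko in 1 cell each, and 80 of 435 Cxcl2 UMIs of cko in 1 cell. Of 22 macrophage maturation genes Apoe, Cd81 and Pf4 were higher and none was lower (median 0.08), and of 15 granule genes Lyz1, Lcn2 and Elane were higher and Lyz2 was lower (median 0.15). Il12a and Il12b, the chains of interleukin 12, had 0 UMIs among 1782378 and 2599923 in the chosen cells, and Tnf had 12 and 19.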

How the data were processed

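Tumor CD45+ cells were captured with the 10x Chromium Single Cell 3′ kit, version 2, and the authors deposited raw UMI counts per gene and cell for both libraries. The submitters' processing notes name Cell Ranger, Seurat and mm10, without versions given in the sources used here. The 5167 deposited barcodes were reduced to 5149 by the limit of 10% mitochondrial UMIs. Cells were chosen by the rule on raw UMIs, counts were summed per library and scaled to counts per 1000000 (CPM), and ratios were given with exact conditional binomial intervals, CPM with Poisson and shares with Clopper-Pearson intervals. Total counts per library were 24492486 and 27163485, or 1782378 and 2599923 in the chosen cells, and precision was limited by 1 library per genotype, so no test was run. A count of 0 was set to 3 in a ratio. The 121 rows with a duplicated symbol were left out of the comparisons, and mitochondrial genes from the named ones.

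Members and gene lists were chosen with earlier results of these data known. Named genes between libraries were the 10 higher and 10 lower genes whose 95% interval lay farthest from a ratio of 1; against each other set, the 8 highest and 8 lowest by the smaller of both libraries' ratios, which is also the ratio behind list medians there; within the class, the 10 with the highest variance over mean at a thinned mean of at least 0.2. Genes of the fixed lists were named beside these, as were the tertile genes, which were chosen after their values were seen. Values of 3 listed genes are not reported here. Python 3.11.15, numpy 2.4.6, scipy 1.17.1, pandas 2.3.3 and scanpy 1.11.5 were used, with TMM factors from edgeR 4.0.16 in R 4.3.3. Alternatives were other filters, scalings, thresholds, doublet removal and depth limits. The scripts were tested on simulated data. Coordinates come from GENCODE M21 (GRCm38), in which all 429 genes looked up were found.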

Additional observations from a re-analysis of the deposited data

Results flagged for a closer look

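For 2 of the genes named between the libraries, the chosen monocytes and another cell set moved in opposite directions beyond counting error. Pf4 had a log2 ratio of cko over wt of 1.99 in the chosen monocytes and -0.95 in Ly6c2-low C1q cells. Ccl4 had -2.17 in the chosen monocytes and 0.64 (0.39 to 0.89) in Ly6c2-positive C1q cells. In both genes 1 cell held most of the UMIs of the higher library among the chosen monocytes, and the difference between the sets was not tested. The opposite direction was lost in some settings. Without the top cell Ccl4 was 0.50 (0.01 to 1.01) in the chosen monocytes, whereas Pf4 was 0.57 (0.10 to 1.05) and kept its direction. Pf4 was -0.20 (-0.68 to 0.28) with scaled thresholds and -0.23 (-1.38 to 0.97) under the stricter gate, with intervals that span 0.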

How the results depend on the processing

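There was 1 library for each genotype, so leaving out a replicate was not possible. No paired analysis was possible because each group had 1 library. The share ratio stayed above 1 under 5 other settings (1.21 to 1.43) and was 0.954 with no threshold on Chil3. The counts of genes past 1.5-fold between libraries followed the UMI filter, with 239 higher and 123 lower at 50 UMIs, 968 and 587 at 10, and 29 and 13 at 200; counting noise grows as genes get fewer UMIs. TMM scaling gave 64 higher and 51 lower, so the share of higher calls moved from that of 81 and 34. Counts against other sets moved past 1.5 times with the filter: at 20 UMIs 69 genes were higher than in interferon-high monocytes, 273 lower than in Ly6c2-positive C1q cells and 751 lower than in Ly6c2-low C1q cells, and at 100 UMIs 9 were higher than in interferon-high monocytes and 302 lower than in Ly6c2-low C1q cells. With no threshold on Chil3, 93 genes were lower in cko, 207 higher than in interferon-high monocytes, 196 higher than in Ly6c2-positive and 268 lower than in Ly6c2-low C1q cells. The cause was not tested.

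Of the genes named between the libraries Ccl4, Pf4 and Gzmb turned sign in at least 1 setting. Xcl1 had no UMI left in wt in 5 settings, where its values were set by the floor of 3 counts and give no sign: 0.67 without the top cell of each gene, 1.499 with thresholds on UMIs scaled to 10000 per cell, 0.00285 under the stricter gate, 0.67 without top-scoring doublets and 0.69 without cells holding lymphoid UMIs. Ccl4 was 0.50, 0.76, 0.37, 0.62 and 0.66 in the same order, Pf4 was -0.20 with scaled thresholds and -0.23 under the stricter gate, and Gzmb was 0.35 with scaled thresholds. Scrublet on its own threshold called 5 of 5167 cells (0.0968%), too few to have worked, so the 48 and 59 top-scoring cells were removed instead, 12 of them among the chosen. No threshold on Chil3 and removal of cells with lymphoid UMIs were chosen after seeing the data. Thinning to 2000 UMIs kept 9 of the 10 most variable genes. Depth limits genes with few UMIs, and no alternative replaces a replicate library.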
